A study of Mus musculus with 17 samples.

Results

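The chromatin loops at the promoters of 6 endoderm transcription factor genes, Foxa1, Foxa2, Foxa3, Sox17, Sox7 and Hnf4a, were described in retinoic acid treated mouse embryoid bodies. A loop was any pair of anchors joined by at least 1 read pair, and a loop belonged to a gene when an anchor lay within 5 kb of one of its annotated transcription start sites on mm9. The 6 genes had 367 of the 1211657 loops, with 483 read pairs in bulk and 398 in sorted cells. Among them, 297 loops had read pairs in bulk, 97 in sorted cells and 27 in both. Mouse embryonic stem cells were aggregated by the hanging drop method and then held in 0.5 µM retinoic acid (RA) for 4 days. HiChIP with an antibody to H3K27ac, the histone mark of active promoters and enhancers, was done on 12 libraries of the whole mixture (bulk) and on 5 libraries that the labels call cluster2. By the study's methods the latter were EpCAM and CD38 double positive cells collected in 5 separate sorts, and they are called double positive here. Both groups had the same cells, RA dose and time, no untreated or undifferentiated group was analysed here, and no genotype is given in the labels. The double positive cells are also a fraction of the bulk, so that bulk is a mixture and not the complement of the sort. Nothing in the labels says that the 12 bulk libraries came from separate cultures, or that each double positive library came from its own sort. The p-values then measure only the spread between libraries, which may be technical.

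Definitive and extra-embryonic endoderm use overlapping sets of these factors. Foxa1, Foxa2 and Foxa3 are forkhead proteins that can bind compacted chromatin, and Foxa2 is also used by node and floor plate. Sox17 and Sox7 are SOX factors of primitive and definitive endoderm and of early endothelium, while Hnf4a is a nuclear receptor of visceral endoderm, liver and gut, transcribed from alternative promoters.

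The bulk libraries held 65178 to 241202 read pairs and the double positive libraries 50508 to 118179. The groups were counted on different numbers of anchors. Of 216081 anchors, 15074 were used by both groups, 200999 by bulk only and 8 by double positive only. A loop on an anchor that no double positive library used had no chance to be counted there, or was counted at 0, and these cases cannot be told apart. Scaling also mattered. With trimmed mean of M-values (TMM) scaling the median of 14115 tested genes was a log2 fold change of -0.52, and with library size alone it was 1.21, a shift of 1.73, so that changes are also given relative to the median gene. Levels below are counts per total after TMM scaling (CPM), that is read pairs scaled to a common library total. The sort genes Epcam and Cd38 did not pass the test at their promoter loops, with adjusted p-values of 0.107 and 0.195 in edgeR's quasi-likelihood test.

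The anchors that carried most double positive read pairs of Foxa2, Sox17, Sox7 and Foxa3 are shown first, since the loops described further on end there. For each, the 200 bases outside annotated exons with the most matches to 4 motifs are printed from mm9, on the plus strand, in lower case with matches in capitals. The motif for forkhead factors (FOX) was TGTTTAC, with TATTTAC as its variant. The motif for SOX factors was ACAATGG, with ACAATAG as its variant. The motif for GATA factors was AGATAAG, and that for HNF4 was CAAAGTCCA. Each was searched on both strands. The Foxa2 promoter, the 250 bases before its most upstream annotated start, is given on its own minus strand because the strongest Foxa2 loop ends on this anchor.
Foxa2 promoter, chr2:147872706-147872955, minus strand: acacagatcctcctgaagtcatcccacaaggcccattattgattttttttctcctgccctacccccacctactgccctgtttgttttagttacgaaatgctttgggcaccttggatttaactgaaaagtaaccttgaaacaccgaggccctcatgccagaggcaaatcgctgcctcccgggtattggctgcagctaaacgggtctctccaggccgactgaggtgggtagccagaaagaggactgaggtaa
Foxa2 lower partner, chr2:147793569-147793768: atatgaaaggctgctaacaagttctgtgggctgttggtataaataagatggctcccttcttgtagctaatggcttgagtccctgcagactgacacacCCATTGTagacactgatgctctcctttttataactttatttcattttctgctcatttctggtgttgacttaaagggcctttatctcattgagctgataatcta
Foxa2 higher partner, chr2:147941144-147941343: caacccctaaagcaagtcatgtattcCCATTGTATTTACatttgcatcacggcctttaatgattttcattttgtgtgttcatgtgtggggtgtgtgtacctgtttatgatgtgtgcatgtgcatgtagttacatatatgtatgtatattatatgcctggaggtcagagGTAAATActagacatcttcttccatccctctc
Sox17 partner, chr1:4561696-4561895: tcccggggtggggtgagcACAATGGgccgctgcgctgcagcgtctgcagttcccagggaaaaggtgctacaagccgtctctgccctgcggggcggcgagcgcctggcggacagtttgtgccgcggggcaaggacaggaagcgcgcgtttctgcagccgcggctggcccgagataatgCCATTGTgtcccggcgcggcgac
Sox7 partner, chr14:64540350-64540549: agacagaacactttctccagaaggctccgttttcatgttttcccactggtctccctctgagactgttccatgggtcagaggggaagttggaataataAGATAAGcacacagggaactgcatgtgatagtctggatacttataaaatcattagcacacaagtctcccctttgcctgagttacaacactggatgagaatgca
Foxa3 partner, chr7:19587607-19587806: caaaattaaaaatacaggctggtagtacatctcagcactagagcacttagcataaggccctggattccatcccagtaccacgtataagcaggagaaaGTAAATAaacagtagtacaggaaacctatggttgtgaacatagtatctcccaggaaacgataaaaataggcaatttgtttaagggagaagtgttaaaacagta

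The Sox17 partner window differed from the others in base composition, with 69% G and C and 22 CpG dinucleotides in 200 bases, where the other partner windows had 38.5% to 44.5% G and C and 0 to 2 CpG. Both of its capital runs are SOX matches, and they were the only matches of the 4 motifs in that 2201 base anchor. As many SOX matches were found in 7.88% of the 15074 shared anchors when cut to the same length. In the higher Foxa2 partner a SOX and a FOX match overlapped, and a second FOX match followed. Over the 6085 bases of that anchor there were 2 FOX, 2 SOX and 1 GATA match, and 46.8% of shared anchors of that length had as many FOX matches. The lower Foxa2 partner had 1 SOX match in 3309 bases, where 48.4% of shared anchors had at least that many. The Foxa2 promoter held none of the 4 motifs in its 250 bases, whose G and C content was 50.8%. Of the 22359 promoters of that length searched, 5.31% held a FOX, 4.24% a SOX, 2.5% a GATA and 0.398% an HNF4 match. The Foxa2 anchor at the 3′ end of the gene had 4 SOX matches in 5306 bases, reached by 3.42% of shared anchors of the same length. The 4 motifs were counted in 15 promoter anchors and in the leading partner anchors. Among counts above 0, the shares of 3.42% and 7.88% were the lowest, and they were not adjusted for the number examined. These letters are descriptions of sequence, and binding was not measured.

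Foxa2 and Foxa3 were higher in double positive cells, Foxa1, Sox17 and Sox7 did not pass the test, and Hnf4a had no double positive read pair. Over all 14115 genes tested, 20.6% were higher and 42.8% lower, so that the count over 6 genes is not a result about endoderm factors as a group. The read pairs came from a mixture of cells in bulk, and fewer cells with a loop cannot be told apart from fewer read pairs per cell.

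**Figure D1:**
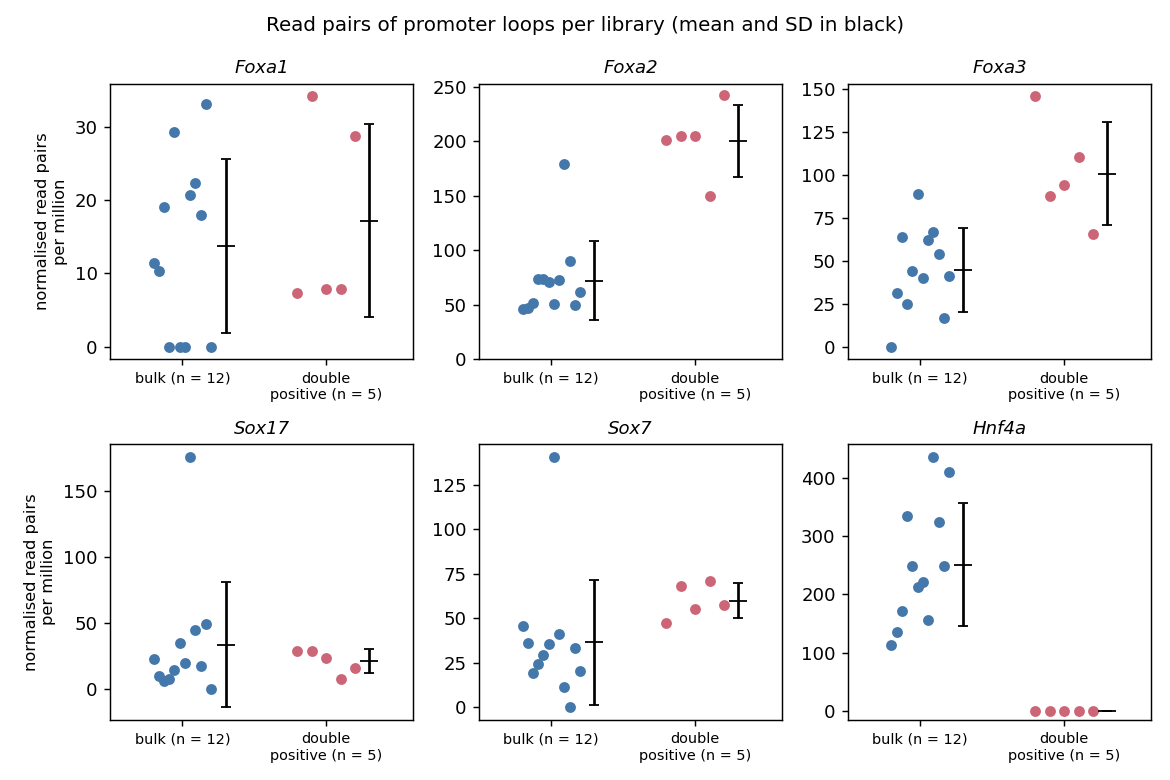
CPM (normalised read pairs, y axis) of all loops at the promoter of each gene, 1 point per library, for 12 bulk and 5 double positive libraries, with the mean and SD in black. Foxa2 had 200.5 in double positive against 71.9 in bulk, Hnf4a was at 0 in all 5 double positive libraries, and 1 bulk library stood far above the others for Sox17 and for Sox7.

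Foxa2, the forkhead factor used throughout the endoderm, had the most double positive read pairs of the 6 genes. In bulk libraries 1 to 12 its loops had 4, 9, 8, 9, 5, 4, 5, 7, 16, 5, 3 and 3 read pairs. In double positive libraries 1 to 5 they had 55, 42, 26, 19 and 59. Every double positive library had more read pairs than every bulk library. After scaling, the level was 200.5 ± 33.0 in double positive (SD, n = 5) and 71.9 ± 36.4 in bulk (SD, n = 12). Bulk replicate 9, at 179, was above double positive replicate 4, at 150, while the other 4 double positive libraries lay above all bulk libraries. None of the 6 genes had all double positive libraries above all bulk libraries after scaling, as 7.22% of tested genes did. The log2 fold change was 1.51 (SE 0.26), with an adjusted p of 5.50e-06 in edgeR, and lay 2.03 above the median gene. With library size alone it was 3.29, or 2.07 above the median. Within 5 Mb on each side, other loops of double positive cells had lower CPM by library size than bulk, 4325 against 6574. This window runs into distal chromosome 2 beyond 150 Mb, where bulk read pairs were in excess. The cause of this regional difference was not tested.

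The double positive read pairs of Foxa2 were gathered on few loops, as they were over the libraries as a whole. Over all loops, double positive replicate 1 had 118179 read pairs on 57545 loops, and bulk replicate 1 had 120902 on 111132. Its 28 double positive loops held 201 read pairs and its 52 bulk loops held 78, and 10 loops were seen in both. Among the 5369 loops with enough read pairs for a test, 38.1% were higher and 22.4% lower in double positive, and the median log2 fold change was 0.78. The 4 Foxa2 loops that could be tested were higher, but they reached the 20 read pairs needed for a test only through double positive cells, with 3, 5, 1 and 2 bulk read pairs, so that their direction was set by the filter and their count is no result.

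The strongest joined the anchor at the Foxa2 starts, chr2:147870746-147875717, which holds all 4 annotated starts, with the anchor at its 3′ end, chr2:147863779-147869084, a span of 6800 bp. It had 22, 16, 6, 6 and 18 read pairs in the double positive libraries, and 1 read pair in each of bulk replicates 2, 3 and 9 only. All 5 double positive libraries were above all bulk libraries after scaling, as for 8.01% of tested loops. This loop passed the filter only through double positive cells. The separation is therefore no result, and neither a fold nor a p is given.

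Both Foxa2 anchors also reached a partner at chr2:147792734-147796042, inside the noncoding gene 9030622O22Rik and downstream of Foxa2. From the 3′ anchor, 72043.5 bp away, the double positive libraries had 7, 4, 4, 3 and 10 read pairs, and 5 bulk libraries had 1 each. From the start anchor they had 5, 8, 3, 2 and 8, and bulk had 1 read pair in all. These loops also passed the filter only through double positive cells, and neither a fold nor a p is given.

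On the upstream side the start anchor reached an intergenic partner at chr2:147939476-147945560, 69286.5 bp away. The double positive libraries had 5, 2, 2, 1 and 11 read pairs and bulk had 2 in total. Double positive replicate 5 thus held 11 of 21. This loop too passed the filter only through double positive cells, and neither a fold nor a p is given. Without double positive replicate 5 or 1 it had too few read pairs for the test. The 3′ anchor met the same partner with 9 double positive read pairs and 1 in bulk. Upstream and farther away, Foxa2 anchors met the Gzf1 and Nxt1 promoters, 632457 and 639257 bp away, with 6 and 9 double positive read pairs against 0 and 1 in bulk. At the Sstr4 promoter there were 5 and 4 against none. In bulk the largest Foxa2 loop had 6 read pairs, to chr2:147846947-147853582, on an anchor that no double positive library used.

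**Figure D2:**
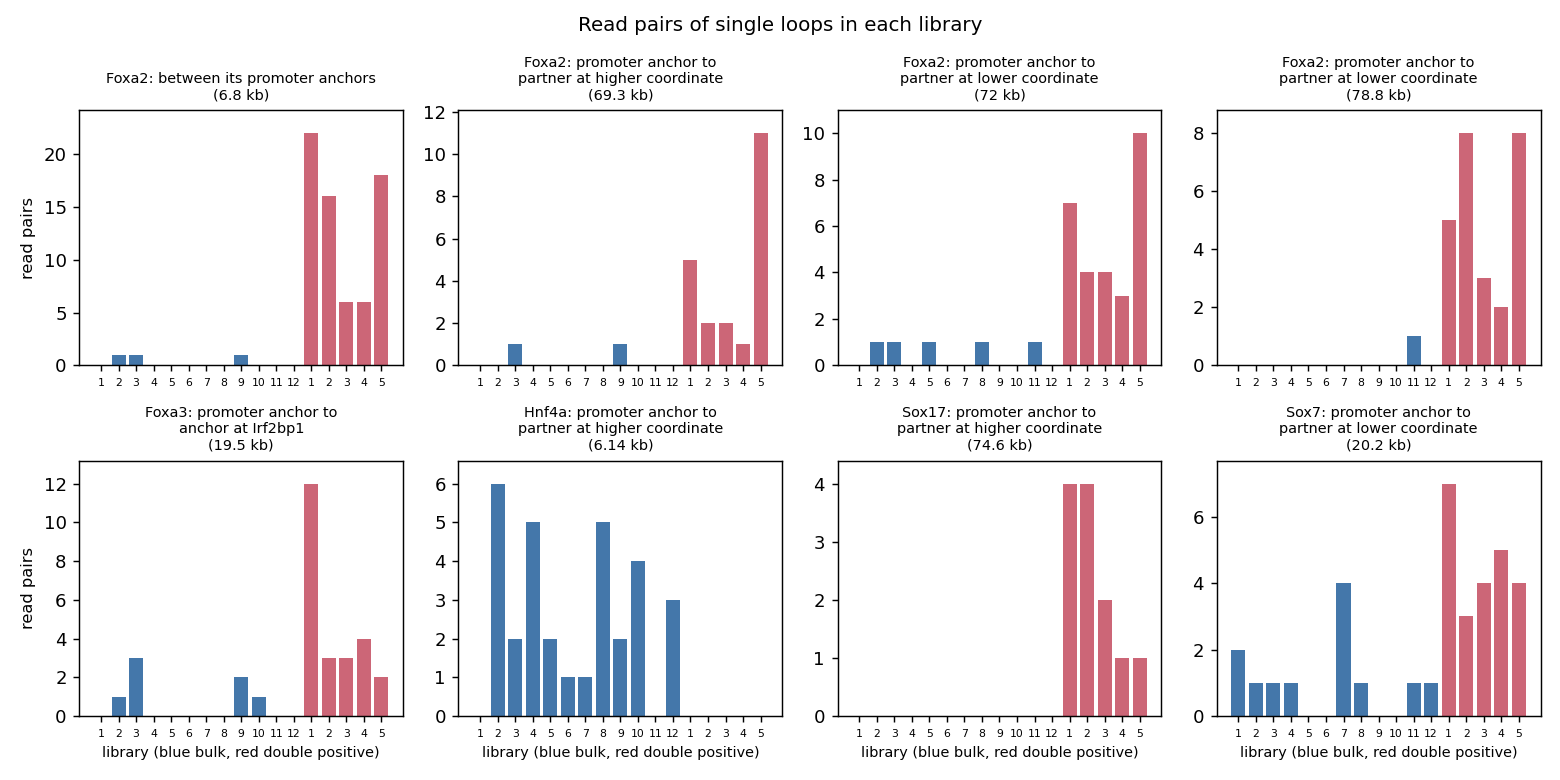
Read pairs (y axis) of 8 single loops in each library (x axis, 12 bulk in blue and 5 double positive in red), with the span of each loop in its title. The Foxa2 loop between its own anchors had 68 read pairs in double positive cells and 3 in bulk, the Sox17 loop had 12 and 0, and the Hnf4a loop had 0 and 31.

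Foxa3, the forkhead paralogue of liver and gut endoderm, was also higher. Its loops had 0, 6, 10, 3, 3, 5, 4, 6, 6, 3, 1 and 2 read pairs in the bulk libraries and 40, 18, 12, 14 and 16 in the double positive libraries. The raw groups did not overlap, whereas after scaling the groups overlapped, with 3 of 5 double positive libraries above all bulk libraries. Levels were 101 ± 29.9 in double positive (SD, n = 5) and 44.4 ± 24.5 in bulk (SD, n = 12). The log2 fold change was 1.20 (SE 0.33, adjusted p 0.00212 in edgeR), which was 1.72 above the median gene. Its region moved the same way. Within 5 Mb, double positive libraries had 11511 CPM by library size against 2642 in bulk, a ratio of 4.36 where the median over all genes was 1.05. When that local level was taken as the offset, the log2 fold change of Foxa3 was 0.86 (adjusted p 0.0170 in edgeR) and lay at -0.09 from the median gene.

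The start anchor of Foxa3, chr7:19608227-19612422, also covers the start of Sympk, and its read pairs could come from either promoter. It had 100 double positive and 30 bulk read pairs. Over all Foxa3 loops, 94% of read pairs in sorted cells went to anchors at other protein-coding promoters, against 63.3% in bulk. The share was also higher in sorted cells for Sox17 (45.5% and 5.56%), Sox7 (24.6% and 2.33%) and Foxa1 (44.4% and 20%). So it was for Foxa2 (53.2% and 15.4%), where the loop between its own anchors is counted. Bulk loops could also end on anchors that double positive libraries did not use. No share over all genes was computed. The largest Foxa3 loop to another promoter, at Irf2bp1, chr7:19587395-19594159, had 12, 3, 3, 4 and 2 double positive read pairs. In bulk it had 7, in 4 libraries. It did not pass the test. This loop too reached the 20 read pairs needed for a test only through double positive cells. Neither a fold nor a p is given, and calls on leaving out 1 library are no support. Loops to the shared Dmpk and Six5 anchor had 6 double positive read pairs, in all 5 libraries, and none in bulk. A further 2 anchors near the Foxa3 start, with 5 and 15 bulk read pairs, were used by bulk only.

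Foxa1, the paralogue that overlaps Foxa2 in gut endoderm, had few read pairs in either group. Bulk libraries had 1, 2, 3, 0, 2, 0, 0, 2, 2, 1, 2 and 0, and double positive libraries 2, 7, 1, 1 and 7. The scaled levels overlapped, with 1 of 5 double positive libraries above all bulk libraries, at 17.2 ± 13.2 (SD, n = 5) against 13.7 ± 11.9 (SD, n = 12). Foxa1 thus had a log2 fold change of 0.41 (SE 0.59, adjusted p 0.557 in edgeR). A gene at this depth could differ without passing. Of the 18 double positive read pairs, 10 lay on 1 loop of 5626.5 bp from the start anchor to an anchor at chr12:58638960-58641250 beyond the 3′ end of the gene. These 10 came from double positive replicates 2 and 5 only, with 4 and 6, and bulk had 2. The next was the anchor of Mipol1, with 4 double positive read pairs and 1 in bulk.

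Sox17, the SOX factor that marks definitive and primitive endoderm, did not pass the test as a gene, and its loops ended on different anchors in the 2 groups. Every bulk loop ended on an anchor that no double positive library used, so on that side the anchor sets fixed the difference. Bulk libraries had 2, 2, 1, 1, 1, 2, 2, 17, 4, 1, 3 and 0 read pairs and double positive libraries 8, 6, 3, 1 and 4. Bulk replicate 8 thus held 17 of the 36 bulk read pairs. Levels were 21.3 ± 9.16 in double positive (SD, n = 5) and 33.8 ± 47.3 in bulk (SD, n = 12), and overlapped. The log2 fold change was -0.57 (SE 0.58, adjusted p 0.404 in edgeR), close to the median gene. Without bulk replicate 8 it was 0.18 (adjusted p 0.779 in edgeR).

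No Sox17 loop was shared between the groups. The 22 double positive read pairs lay on 4 loops, all from the anchor at the Sox17 starts, chr1:4485881-4488565, and all toward higher coordinates, upstream of the gene. The main one ended 74575 bp away at the intergenic partner chr1:4560698-4562898, of which a CpG-rich window is shown above. It had 4, 4, 2, 1 and 1 read pairs in the double positive libraries and none in any bulk library, although bulk libraries used both anchors in other loops. A total of 0 allows 3 counts over the bulk group. The 12 double positive read pairs, taken without their own counting error, were 15.8-fold above that limit by library size. With the TMM factors of the gene fit the value was 4.65-fold, and the factors of the loop fit were not applied. This loop had too few read pairs for the loop test and its difference was not tested. The other 3 ended at the Lypla1, Mrpl15 and Tcea1 promoters, with 4, 3 and 3 double positive read pairs.

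The 29 bulk loops of Sox17 had at most 3 read pairs each, and none ended on an anchor that both groups used. The bulk anchor inside the gene, chr1:4481098-4484412, had 23 read pairs in bulk and was not used in double positive cells. The region was nearly empty in double positive cells. Within 5 Mb of Sox17 they had 32.2 ± 22.9 CPM by library size against 994 ± 372 in bulk (SD, n = 5 and n = 12), a ratio of 0.0324. Only 2 of the 25 anchors within 100 kb were used by double positive cells, and those are the 2 ends of the main loop. With the local level as the offset, the log2 fold change was 6.04 (adjusted p 5.66e-12 in edgeR), a value that rests on very few local read pairs.

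**Figure D3:**
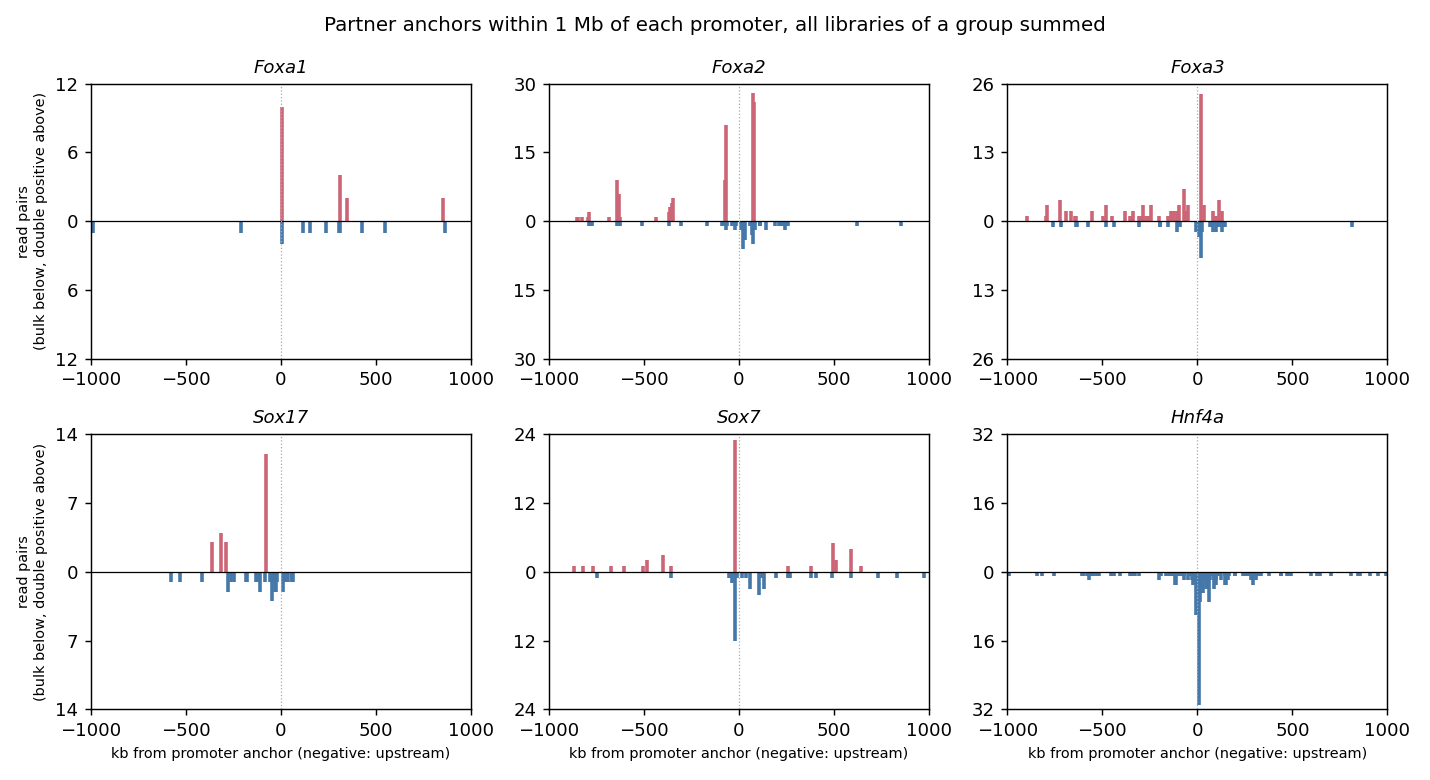
Read pairs (y axis, double positive above and bulk below the line, libraries summed) of each loop against the distance in kb from the promoter anchor to its partner (x axis, negative upstream of the gene), within 1 Mb. Double positive read pairs stood on single partners, such as 12 at 74.575 kb upstream of Sox17, where the bulk loops of Sox17 had 1 to 3 read pairs each. Over all loops, too, double positive libraries had fewer loops for their read pairs than bulk.

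Sox7, the paralogue that accompanies Sox17 in primitive endoderm and vessels, had 4, 7, 3, 3, 2, 2, 14, 4, 1, 0, 2 and 1 read pairs in the bulk libraries and 13, 14, 7, 9 and 14 in the double positive libraries. All 5 double positive libraries were above the bulk median, but bulk replicate 7 was above all of them after scaling. Levels were 59.9 ± 9.73 in double positive (SD, n = 5) and 36.4 ± 35.3 in bulk (SD, n = 12). The log2 fold change of 0.63 (SE 0.40) did not pass, with an adjusted p of 0.166 in edgeR, and lay 1.15 above the median gene. Without bulk replicate 7 it was 1.05 (adjusted p 0.0112 in edgeR).

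Sox7 kept 1 leading loop in both groups. Its start anchor, chr14:64560715-64563919, met an intergenic anchor 20234 bp upstream, chr14:64539446-64544720. The double positive libraries had 7, 3, 4, 5 and 4 read pairs and 8 bulk libraries had 1 to 4, with a total of 12. Its share of all Sox7 read pairs was 40.4% after sorting, against 27.9% in bulk. The loop did not pass the test. It too passed the filter only through double positive cells, so the test cannot decide whether it differed, and neither a fold nor a p is given. Farther partners were seen in double positive cells at Msra, with 5 read pairs, and at an intergenic anchor 589429 bp away, with 4, against 0 and 1 in bulk.

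Hnf4a was the only one of the 6 genes with no double positive read pair, and it had the most in bulk. The 12 bulk libraries had 10, 26, 27, 41, 17, 12, 22, 15, 39, 18, 15 and 20 read pairs, a level of 251 ± 105 (SD, n = 12), and all 5 double positive libraries had 0. The groups did not overlap, which was the case in this direction for 14.9% of genes tested. None of the 6 Hnf4a anchors was used by any double positive loop, and Hnf4a passed the filter only through bulk, so that it had to differ and neither a fold nor a p is given. The nearest anchor that double positive cells used, chr2:163297177-163299417, lay 33127 bp from an Hnf4a start. Of 22 anchors within 100 kb, 3 were used by double positive cells.

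The 262 bulk read pairs of Hnf4a were spread over 143 loops, of which 102 had a single read pair. The most used anchors were inside the gene, at chr2:163380481-163382861 with 95 read pairs and at chr2:163355576-163358610 with 77. The anchor at the most upstream start, chr2:163331440-163333435, had 12, and that at the downstream promoter, chr2:163371417-163373903, had 36. The leading loop joined chr2:163380481-163382861 with chr2:163384271-163391354, also inside Hnf4a, over 6141.5 bp. It had 31 read pairs in 10 bulk libraries, 1 to 6 in each, and none in double positive cells. Other bulk partners were at the Ttpal promoter, with 7 read pairs, and at the shared promoter anchor of Serinc3, with 4. The Serinc3 anchor was used by double positive cells in other loops. Within 5 Mb of Hnf4a, bulk had 18717 ± 3724 CPM by library size (SD, n = 12) and double positive 5761 ± 210 (SD, n = 5), a ratio of 0.308. Hnf4a lies on distal chromosome 2, beyond 150 Mb, where bulk read pairs were in excess. The median of this ratio over all genes was 1.05. Hnf4a loops were thus at 0 in a region at 0.308 of the bulk density. What part of the high bulk level of Hnf4a came with that excess was not tested.

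**Figure D4:**
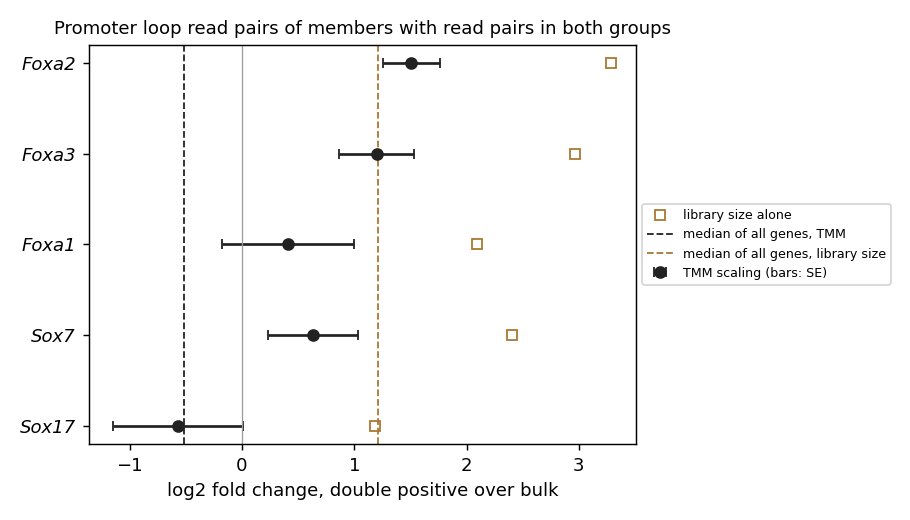
Log2 fold change of promoter loop read pairs, double positive over bulk (x axis), for the 5 genes with read pairs in both groups, with TMM scaling (filled points, bars 1 SE) and library size alone (open squares). Dashed lines mark the median of all 14115 genes, -0.52 and 1.21. Foxa2 lay 2.03 and 2.07 above these medians, and Sox17 lay on them.

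Per kb of the promoter anchors that a group used, the order of levels in double positive cells was Foxa3 at 24.0 ± 7.12 CPM per kb, Foxa2 at 19.5 ± 3.21, Sox7 at 18.7 ± 3.04, Sox17 at 7.93 ± 3.41 and Foxa1 at 2.87 ± 2.20 (SD, n = 5), while Hnf4a had no anchor in use. Foxa3, Foxa2 and Sox7 did not differ beyond their spread. In bulk Hnf4a came first at 17.2 ± 7.21, then Sox7 at 11.4 ± 11, Foxa2 at 7.0 ± 3.54, Sox17 at 5.64 ± 7.88, Foxa3 at 4.62 ± 2.55 and Foxa1 at 2.29 ± 1.99 (SD, n = 12). Each neighbouring pair in the bulk order overlapped within 1 SD, and without bulk replicate 8 Sox17 had 3.49 ± 2.67 (SD, n = 11), below Foxa3. These levels rest on 1 to 3 anchors a gene, apart from the 6 of Hnf4a in bulk, which lie in a region with a bulk excess.

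The reach of the read pairs was described by median spans. Weighted by read pairs, the median span of Foxa2 loops was 72043.5 bp in double positive and 76086.5 bp in bulk, and that of Foxa3 was 114669 and 99819 bp. Sox7 loops had medians of 399494 and 104250.5 bp, and Foxa1 loops 5626.5 and 314303 bp. Without double positive replicate 5 the double positive median of Foxa1 was also 314303 bp. On shared anchors the bulk medians were 5626.5 bp for Foxa1, equal to double positive, and 20234 bp for Sox7, and without bulk replicate 2, 3, 4, 6, 8 or 9 that of Sox7 was 58210.5 bp. For Sox17 they were 74575 and 55117 bp, and Hnf4a loops in bulk had 64303 bp. Over all genes the medians were 80726.5 bp in double positive and 123391 bp in bulk. Within single libraries the Sox7 median ran from 20234 to 497064 bp in double positive, so that its group median hides a wide spread. Library medians in bulk ran from 27306 to 244023.5 bp for Foxa2 and from 10266 to 640051 bp for Foxa3. For each gene with loops in both groups the library medians of the groups overlapped. These spans are descriptions, and no test was made.

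Other genes with a like course over the 17 libraries were named by the smallest root mean square difference of gene-centred log2 values, among genes over 2 Mb away. For Foxa2 these were Wbp2 (0.378) and Fam187b (0.391), where the median over all genes was 1.77. For Foxa3 they were Bst2 (0.500) and Thra (0.513). For Hnf4a they were Ppp1r12b (0.367) and Stau1 (0.385), against a median of 3.67. For Sox17, Sox7 and Foxa1 the nearest genes were farther, with Snx25 at 0.856, Pmvk at 0.604 and Hif1a at 1.09.

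Of 22 other regulators of endoderm, 16 could be tested. Of these, 2 were higher, among them Gata4, a zinc finger factor of primitive endoderm, 8 were lower and 6 did not pass. The median log2 fold change of the 16 was -1.06, against -0.52 over all genes. Setting the 5 genes at 0 in double positive cells to the bound that 3 counts give could not move it, since they stayed below it. These 5 passed the filter only through bulk, so that they had to be lower. Gata4 had 209 double positive and 73 bulk read pairs (log2 fold change 1.73, adjusted p 2.13e-07 in edgeR). Among the 8 that were lower, Mixl1 had 170 bulk read pairs, Nr5a2 had 44, Prdm1 had 43 and Klf5 had 33, and each had 0 in double positive cells. Of 34 genes that endoderm cells use, such as apolipoproteins, basement membrane and keratins, 28 could be tested. Of these, 15 were higher, 8 were lower and 5 did not pass, with a median of 1.18. The 7 genes at 0 in double positive cells stayed below it at their bound. They passed the filter only through bulk and had to be lower. Rbp4 and Thbd, both higher, had 17 and 18 bulk read pairs and passed the filter only through double positive cells. Over all genes tested, 20.6% were higher and 42.8% lower, and these list counts are descriptions.

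Markers of other cell types were counted in the same way. Their counts stand beside 20.6% higher and 42.8% lower among all tested genes, and are descriptions. Of 9 neural genes tested, 0 were higher and 8 lower, with a median of -3.44, and their summed level was 212 to 263 in double positive libraries and 1008 to 2180 in bulk. Pou3f2 and Neurod1, both neural factors, had 8 and 5 double positive read pairs against 374 and 169 in bulk. Of 6 genes of floor plate and node, which also use Foxa2, 1 was higher and 3 were lower, and their summed level was 165 to 303 in double positive and 250 to 502 in bulk. The higher one was Noto, with 28 read pairs against 7, which passed the filter only through double positive cells. Shh had 13 against 28. Of 4 endothelial genes tested, which bear on Sox7 and Sox17, 0 were higher and 3 lower, with summed levels of 31.5 to 86.5 and 205 to 393. Of the 10 genes in that list, 7 had 0 double positive read pairs, namely Pecam1, with 73 in bulk, and Cdh5, Kdr, Tek, Tie1, Etv2 and Fli1, with 5 to 18 in bulk. Erg had 5 double positive against 34 bulk read pairs and Sox18 had 35 against 141. Tal1, a blood and endothelial factor, had 22 against 16 and did not pass (log2 fold change 0.57). Of 3 pluripotency genes tested 2 were higher, Pou5f1 and Tdgf1, and Esrrb was lower. The part of these cell types in the levels of the 6 genes was not tested.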

How the data were processed

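H3K27ac HiChIP was done on 12 bulk and 5 double positive libraries of embryoid bodies. The authors mapped reads to mm9 with HiC-Pro and called anchors and loops with hichipper. The deposited values are counts of read pairs per pair of anchors, 1 file per library, with no normalisation. Anchors of the 17 files were joined where they overlapped, which dropped 700 read pairs that fell within 1 joined anchor. Anchor edges lay at a GATC site of mm9, within 4 bases, in over 99% of cases. Read pairs were summed per protein-coding gene, over its loops as defined above (GENCODE vM1, 19244 of 22367 genes with an anchor). Genes and loops with at least 20 read pairs, in at least 5 libraries, were tested with edgeR 4.0.16 in R 4.3.3 (TMM, quasi-likelihood, Benjamini-Hochberg over all features, threshold 0.05), with DESeq2 1.42.0 as an alternative. SE is the log2 fold change over the root of the F statistic. No 2 libraries of a group had counts that agreed within sampling noise, but pairs of double positive libraries came close to it. Their chi-square per degree of freedom, near 1 under sampling noise alone, was 1.05 to 1.17, against 1.43 to 3.20 in bulk. Whether the double positive libraries are independent cannot be told from this. Intervals and limits cover counting error only, since PCR reads without molecular identifiers are not independent molecules.

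The 6 genes and all lists were chosen with earlier results of these data known. Named loops are those of the 6 genes that passed the filter, and loops below it are given as counts and were picked after their values were seen. Gata4, Noto, Shh, Pou5f1, Tdgf1, the endothelial genes and partner genes below the filter were also named after their values were seen. Named list members are otherwise the largest changes that passed, and 1 further gene and 1 sequence are not reported here. On simulated data the gene fit recovered 80% of 4-fold higher and 46% of 4-fold lower genes, with 2.70% of calls false, and the loop fit recovered 56% and 6%, with 1.05% of calls false. Lower calls were thus harder to make than higher ones in that setting. The simulation changed 200 genes or loops, made no shift over all features and left no anchor out of a group. These rates need not hold for the calls here. Alternatives were scaling, filter, anchor set, span, depth, libraries, start window and local level. Base shares and motifs were computed with Python 3.11.15.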

Additional observations from a re-analysis of the deposited data

Results flagged for a closer look

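One value stood apart from the other libraries of its group. For the Foxa2 loop from its start anchor to chr2:147939476-147945560, double positive replicate 5 had 35.9 CPM after TMM scaling, and the group mean was 15.0 ± 12.1 (SD, n = 5). Its gap to the nearest of the other 4 libraries exceeded Dixon's critical value for 5 samples. Chance flags about 1 in 20 groups, and 13 groups of 5 libraries were examined. Without double positive replicate 5 or 1 the loop had too few read pairs for the test. In the other 15 fits that left out 1 library it was called. It passed the filter only through double positive cells, so these calls are no support.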

How the results depend on the processing

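Foxa2 and Foxa3 kept their calls and directions in all 32 gene-level alternatives. Hnf4a had 0 double positive read pairs in each by its anchors, and could not be fitted on shared anchors, in libraries with 500 strong loops or where distal chromosome 2 was left out. Leaving out 1 library gave 1.42 to 1.71 for Foxa2, 1.00 to 1.33 for Foxa3, 0.05 to 0.64 for Foxa1, -0.73 to 0.18 for Sox17 and 0.52 to 1.05 for Sox7 (log2).
Sox17 turned higher with library size alone (1.18), on shared anchors (4.01, against 0 bulk read pairs, so no fold), in libraries with 500 strong loops (0.93, 1 bulk library) and with the local level as offset (6.04). Foxa1 was called with library size (2.10) and local level (2.52) and turned lower with spans of at least 20 kb (-0.46). Sox7 was called with library size (2.41), thinned libraries (1.32), local level (2.99) and 10 libraries chosen after seeing the data (0.91). Library size alone moved the median gene to 1.21, and relative to it Sox17 lay at -0.03, Foxa1 at 0.88 and Sox7 at 1.19, against -0.05, 0.93 and 1.15 with TMM. The local level moved it to 0.95, with Foxa1 at 1.57 and Sox7 at 2.04 from it. The other causes were not tested.
Replicate numbers did not pair the libraries, since 0 of 5 same-numbered libraries correlated best with each other (residual correlations of -0.0143 to 0.0104). With the replicate block, on 10 libraries, Sox17 was 0.81 and 2 of the 4 Foxa2 loops remained called, and without the block, on the same 10, Sox17 was 0.90. The block gave 3966 genes lower, against 4171 in the same 10 without it, and 827 loops higher and 429 lower, against 1142 and 486 (17 libraries gave 6040, 2044 and 1203).
The 4 higher calls among loops of the 6 genes became 1 with at least 50 read pairs and 0 in libraries with 500 strong loops (1 bulk library), and 3 to 5 on leaving out 1 library. The loops called higher passed the filter only through double positive cells, so these counts are no support. The 1 lower call was lost (0) with at least 50 read pairs, no filter, shared anchors, spans of at least 20 kb, thinning, the 500 strong loops, the block and the 10 libraries.
Over all genes, main counts of 2906 higher and 6040 lower became 7800 and 3702 with library size alone, 7577 and 3022 with the local level, and 1671 and 2060 with the 500 strong loops. Lower genes were 3786 at the filter of 50 read pairs, 9771 with no filter, 988 on shared anchors and 3049 after thinning. Leaving out 1 library gave 2572 to 2941 higher and 5517 to 5940 lower.
Over all loops, 2044 higher and 1203 lower became 4129 and 740 with library size, 1060 and 126 after thinning, 334 and 197 at the filter of 50 read pairs, and 31 and 73 with the 500 strong loops. Lower loops were 44 with no filter, 552 on shared anchors and 413 with spans of at least 20 kb. Leaving out 1 library gave 1206 to 1924 higher and 834 to 1182 lower.
Counting each loop once moved the median span of Foxa2 to 170255 bp in bulk and 684312 in double positive, of Sox7 to 257315 and 603134, of Foxa1 in double positive to 314303, of Foxa3 in double positive to 284242, of Sox17 in double positive to 288412 and of Hnf4a in bulk to 191126. Depth limits Foxa1, with 33 read pairs in all, Sox17, with 58, and most single loops.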
